A study of Caenorhabditis elegans with 2 samples.

Results

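The proteasome is the barrel-shaped protease that degrades ubiquitin-tagged proteins in the cytosol and nucleus of all eukaryotic cells. Its core particle stacks rings of alpha subunits (pas genes in C. elegans), which gate the entry, around rings of beta subunits (pbs genes), some of which cut peptide bonds. Its regulatory particle holds a ring of ATPases (rpt genes), which unfold substrates and thread them into the core, and non-ATPase subunits (rpn genes), which bind and remove ubiquitin and form the scaffold. In worms, the transcription factor SKN-1 is known to raise the expression of the subunit genes when proteasome activity falls short.

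Proteasome subunit genes were taken as the protein-coding genes whose symbol starts with pas-, pbs-, rpt- or rpn-. There were 33 of them among 19985 protein-coding genes, 14 for the core particle (7 pas and 7 pbs) and 19 for the regulatory particle (6 rpt and 13 rpn). The study mapped CEH-14, a LIM homeobox transcription factor known for its part in neuron identity, by chromatin immunoprecipitation and sequencing in whole hermaphrodite late embryos, 5 hours after egg bleaching. All worms were of strain OP315, a single stable transgenic line in which CEH-14 carries GFP-FLAG at its C-terminus, and the precipitation used an antibody against GFP, while the antibody field of the labels reads ceh-14. The series holds 1 group of 2 biological replicates, and no untagged or input sample was analysed here. Signal from a few cells and weaker signal from many cells cannot be told apart in such whole-embryo chromatin, and without another group no comparison between conditions was possible.

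The deposited lists hold regions, called entries here, each with a summit and a signal value set by the authors' peak caller. The shortest list, thresholded by IDR (irreproducible discovery rate, which asks whether replicates rank the same peaks), held 1681 peaks, and these were the 1681 strongest entries of the pooled list of 21766. The pooled list and the lists of replicate 1 (21217 entries) and replicate 2 (19577 entries) are relaxed, and the authors name them as peaks together with background. Ranks run from 1 for the strongest signal value in a list, and neither ranks nor signal values are on a common scale between lists. A gene was counted as having an entry when a summit lay within 1000 bases of the start of any of its transcripts.

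Peaks lay at 7 of the 33 subunit genes, spread over the core particle (pas-1, pas-3 and pbs-3) and the non-ATPase subunits of the regulatory particle (rpn-3, rpn-7, rpn-9 and rpn-11). No IDR summit lay near any of the 6 ATPase genes, which in so few genes is near the 6.82% of all genes with one. The 7 genes make 21.2% of the list (Wilson 95% interval 10.7 to 37.8%, counting error only), beside 6.82% of all protein-coding genes and 6.85% of the autosomal ones. No subunit gene lies on the X chromosome. Genes of a list are not replicates and no test was made on the list, so the shares are given side by side as a description. Leaving out replicate 1 gave 8 genes among the 1681 strongest entries of replicate 2, beside 6.59% of all genes. Leaving out replicate 2 gave 5 among the 1681 strongest of replicate 1, beside 6.63%.

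Close spacing of genes moved with this share. Another protein-coding start lay within 1000 bases of a start at 25 of 33 subunit genes (75.8%), but at 5094 of 19985 genes in all (25.5%). An IDR summit was met at 13.7% of these closely spaced genes of the genome and at 6 of the 25 subunit genes of that kind (24.0%, interval 11.5 to 43.4%). Among genes with no other start so close, 4.45% had one, and so did 1 of 8 subunit genes. When each summit was given only to the gene with the single nearest coding start, at any distance, 3 subunit genes (9.09%) had a peak, beside 7.32% of all genes. How far the spacing accounts for the share was not tested.

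The strongest peak was at pbs-3, which encodes a beta ring subunit without a known cutting site. It lay on II at 4955422 to 4955877 with rank 444 and a signal value of 131.8, and in the replicates the region had the rank 531 (signal value 59.2) in replicate 1 and 522 (69.9) in replicate 2. Its summit lay 223 bases upstream of the pbs-3 start, inside the 3′ untranslated region of ulp-2, a gene on the same strand that ends 23 bases before pbs-3. It was the only one of the 7 peaks with no other coding start within 1000 bases of the summit. The pbs-3 peak thus lay almost wholly over the end of ulp-2, just upstream of pbs-3.

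The peak at rpn-7, a lid subunit gene, had nearly the same strength, with rank 459 and a signal value of 130.3 on IV at 9315979 to 9316434. The replicates ranked it 605 (56.2) and 449 (73.9). Its summit lay in the 5′ untranslated region of the divergent gene F49C12.9, 8 bases from that gene's start and 424 bases from the rpn-7 start. The remaining 5 peaks were weaker, with ranks between 1181 and 1413.

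At rpn-9, a further lid gene, the peak on II at 11238887 to 11239342 had rank 1181 and a signal value of 87.5. Its region ranked 2141 (32.0) in replicate 1 and 868 (56.0) in replicate 2. The summit lay 196 bases upstream of rpn-9 and 482 bases from the start of the divergent gene T06D8.9.

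The peak at rpn-3, also a lid gene, on III at 8446897 to 8447352, had rank 1223 and a signal value of 86.2, and it differed most between the replicates. Its region ranked 5731 (21.5) in replicate 1 but 622 (64.6) in replicate 2. The summit lay between rpn-3 (228 bases) and the divergent hsp-110 (216 bases), which encodes a large Hsp70-related chaperone, and 30 bases from the start of the non-coding gene C30C11.14. The peak thus stood midway between a proteasome gene and a chaperone gene that are read in opposite directions.

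At rpn-11, which encodes the deubiquitinase that strips ubiquitin from substrates, the peak on II at 4044324 to 4044779 had rank 1256 and a signal value of 85.0. Its region ranked 1083 (43.6) in replicate 1 and 1627 (42.5) in replicate 2. The summit lay 6 bases upstream of a rpn-11 start, the closest of the 7. The next coding start, that of K07D4.2 on the same strand, was 944 bases away.

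The alpha ring gene pas-1 had a peak on V at 14423197 to 14423652 with rank 1303 and a signal value of 83.0, ranked 1358 (39.6) and 1601 (42.7) in the replicates. This summit was the farthest from its subunit gene, at 807 bases, and lay 121 bases from the start of rpoa-12, which encodes an RNA polymerase I subunit. The gene rpoa-12 lies on the same strand as pas-1 and ends 107 bases before it.

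The sequence at the summits is shown for 4 of these peaks, so that the stretches under the strongest signal can be compared. Each run covers 50 bases on either side of the summit, cut where an annotated untranslated region begins, and is read on the strand of the subunit gene from the ce11 sequence of RefSeq's WBcel235 assembly. Capitals mark the summit base and up to 5 bases on each side.
pas-1, chrV:14423375-14423475, minus strand: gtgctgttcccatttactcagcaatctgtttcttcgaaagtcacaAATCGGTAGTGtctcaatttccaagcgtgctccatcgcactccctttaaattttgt
rpn-11, chrII:4044547-4044602, minus strand: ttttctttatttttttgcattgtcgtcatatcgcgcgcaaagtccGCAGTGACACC
rpn-3, chrIII:8447075-8447175, plus strand: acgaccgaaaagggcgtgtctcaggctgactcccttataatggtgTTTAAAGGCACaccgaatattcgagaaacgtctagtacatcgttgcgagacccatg
rpn-9, chrII:11239065-11239165, minus strand: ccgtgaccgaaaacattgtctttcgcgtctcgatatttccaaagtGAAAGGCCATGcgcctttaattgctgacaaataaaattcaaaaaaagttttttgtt

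A search for 4 hexamers on both strands covered the full 101 bases at all 7 summits, including bases not shown. GAGAGA was in none of the 7 windows, beside 432 of 1671 nuclear IDR peaks (25.9%). TAATTA, a core bound by LIM homeodomain proteins, was at the pbs-3 summit only, beside 5.86% of nuclear peaks. TGTCAT was at the rpn-11 summit only, beside 2.99%, and TATCAT was at none, beside 1.68%. GC content of the 101 bases ran from 32.7% at pbs-3 to 50.5% at rpn-7, and the median of all nuclear IDR peaks was 48.5%.

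**Figure D1:**
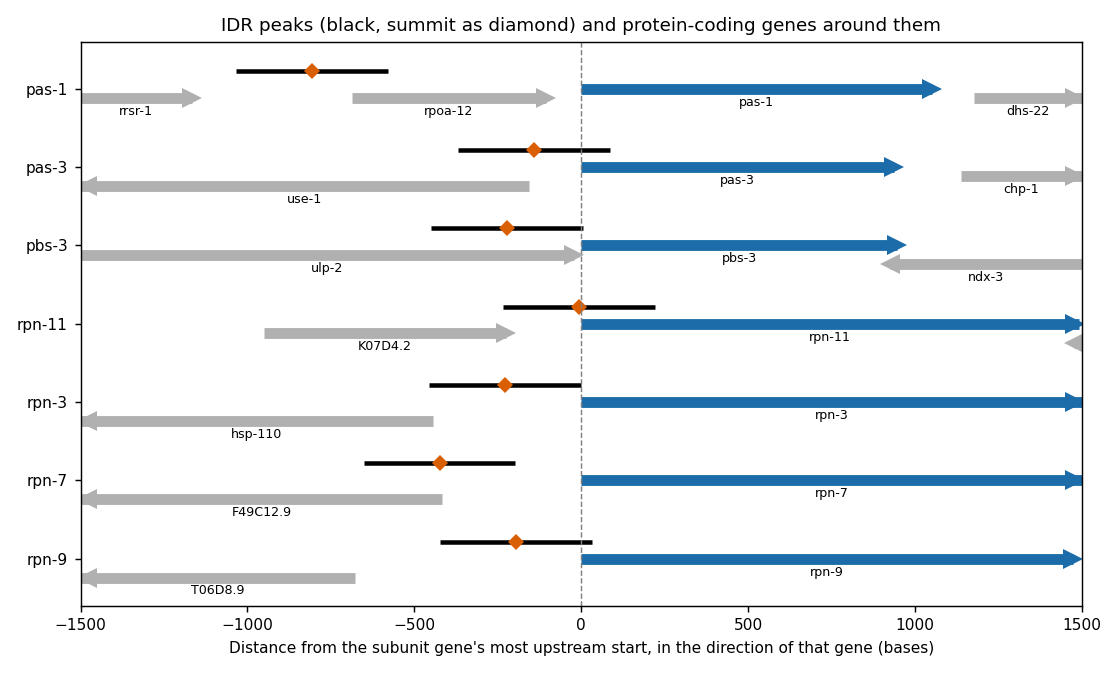
Positions of the 7 IDR peaks at subunit genes, in bases from the most upstream start of the subunit gene and in its direction. Black bars are peaks and diamonds their summits, blue arrows are the subunit genes and grey arrows other protein-coding genes on either strand, cut at the edges. All 7 summits lie upstream of the subunit gene, from 6 bases (rpn-11) to 807 bases (pas-1), and grey genes start or end close to most of them.

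The other alpha ring gene with a peak was pas-3, whose peak on I at 5105963 to 5106418 had rank 1413 and a signal value of 79.9. The replicates ranked it 1792 (34.8) and 1497 (44.1). It was the weakest of the 7, and its summit lay 143 bases upstream of pas-3 and 13 bases from the start of use-1, a divergent gene for a SNARE protein of vesicle transport.

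All 7 summits lay upstream of the subunit gene's start, as did 87.9% of those at the 1362 protein-coding genes with an IDR summit. The median distance was 223 bases, beside 276.5 bases for those 1362 genes. For 6 of the 7, another coding gene also had a start within 1000 bases of the summit (85.7%, beside 54.5%). The subunit gene's own start was the nearest coding start for 3 of 7, namely pbs-3, rpn-9 and rpn-11 (42.9%, beside 71.7%). No summit was shared by 2 subunit genes.

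Each of the 7 peaks had an entry covering at least 50% of it, and covered to at least 50%, in both replicate lists, as did 91.6% of all IDR peaks. Since IDR peaks derive from these lists, this describes the match and does not test it. When summits had to lie within 50 bases in both replicates, 2 of the 7 were met (pas-3 and pbs-3), beside 70.2% of all IDR peaks. The replicate summits at rpn-3, rpn-7 and rpn-9 were up to 91, 95 and 95 bases from the pooled one. Among the 1681 strongest entries of both replicates were those at pas-1, pbs-3, rpn-7 and rpn-11. These 4 of 33 subunit genes stand beside 973 of all 19985 genes and 509 of the 5094 closely spaced ones.

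In the pooled relaxed list, 28 of 33 subunit genes had an entry (84.8%, interval 69.1 to 93.3%), beside 42.1% of all protein-coding genes and 53.9% of those with another coding start within 1000 bases. Subunit genes with such a close start had one at 21 of 25 (84.0%) and those without at 7 of 8 (87.5%), beside 38.1% of the genome's genes without. In this list the share was thus above that of all genes for subunit genes of either spacing. The pooled list includes background, so that an entry low in it is weak evidence of binding. Among the stronger 50% of its entries, 25 subunit genes (75.8%) kept one, beside 27.1% of all genes.

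Entries just below the IDR peaks were frequent. The best pooled rank lay between 1682 and 5000 at 11 of 33 subunit genes (33.3%), beside 9.00% of all protein-coding genes. Between 5001 and 21766 lay 10 subunit genes (30.3%, beside 26.3%), and 5 had no entry (15.2%, beside 57.9%). With genes lacking an entry placed after all others, the median subunit gene had the pooled rank 4233, while the median protein-coding gene had no entry.

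**Figure D2:**
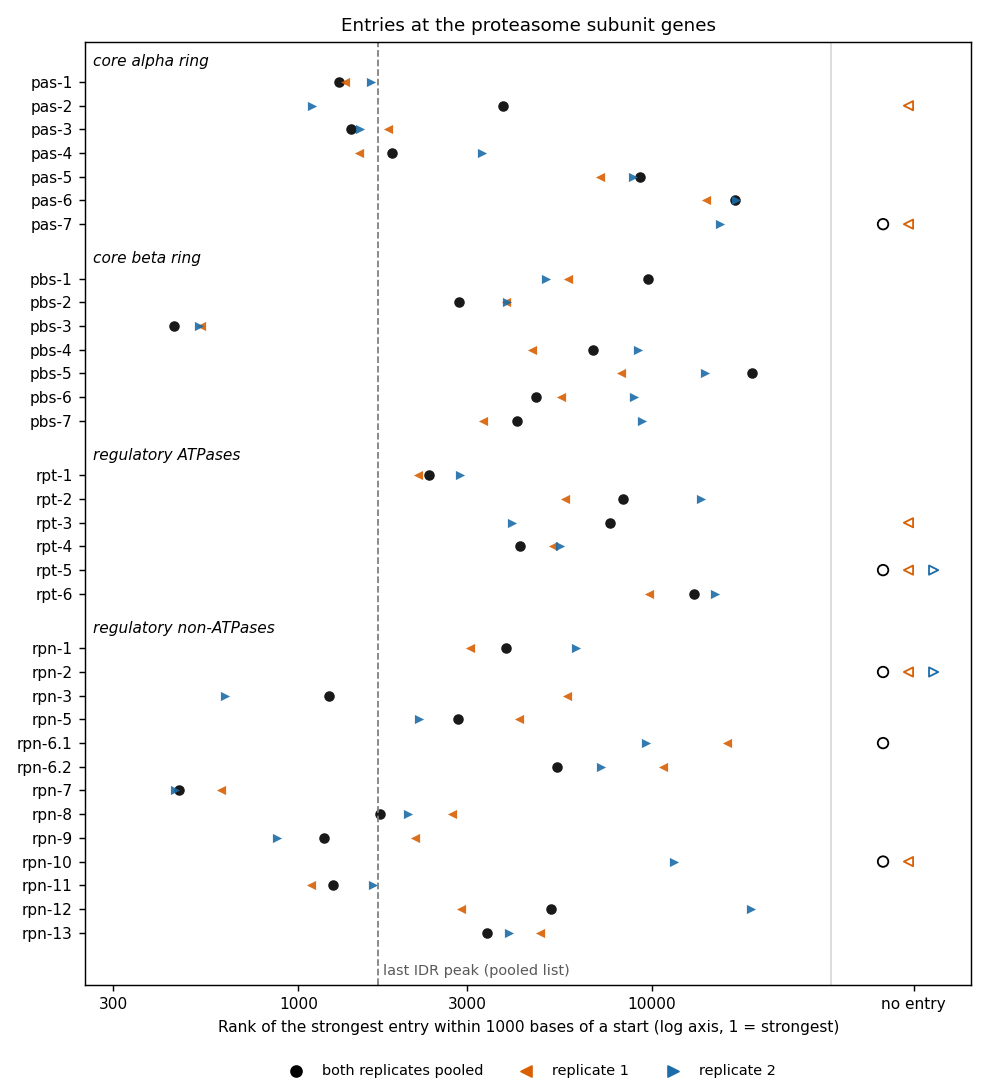
Rank of the strongest entry within 1000 bases of a start for each of the 33 subunit genes, on a log axis, in the pooled list (circles) and in the lists of replicate 1 and replicate 2 (triangles); open symbols at the right mark genes with no entry in that list. The 7 circles left of the dashed line are the IDR peaks, with pbs-3 and rpn-7 far ahead of the other 5, while the ATPase genes all lie to its right.

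Among alpha ring genes, pas-4 came next after those with a peak. It had the pooled rank 1835 (signal value 69.8), with 1485 in replicate 1 and 3309 in replicate 2, and lies opposite rpb-3, which encodes an RNA polymerase II subunit. At pas-2 the pooled rank was 3788 (49.1), from an entry of rank 1090 (51.0) in replicate 2 and no entry in replicate 1. The genes pas-5 and pas-6 had the pooled ranks 9218 and 17165, from summits 912 and 871 bases from their starts. A weaker pooled summit lay nearer to pas-5, at 311 bases. At pas-7 there was no pooled entry, and only replicate 2 had one, with rank 15530. Replicate 2 alone thus carried the signal at both pas-2 and pas-7.

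All 7 beta ring genes had a pooled entry. Of the genes for the cutting subunits, pbs-2 (trypsin-like) had the rank 2849, pbs-1 (caspase-like) 9734 and pbs-5 (chymotrypsin-like) 19189, the last near the end of the list. The structural subunit genes pbs-7, pbs-6 and pbs-4 ranked 4138, 4700 and 6793. The summits so ranked lay 354 bases from the start at pbs-2, 736 at pbs-1 and 820 at pbs-5. At pbs-7, pbs-6 and pbs-4 they lay at 120, 59 and 73 bases. A weaker pooled summit lay nearer to pbs-1, at 101 bases. The nearest IDR summit was 1376 bases from pbs-2 and 1166 bases from pbs-5, outside the window, and both genes counted as having a peak at 2000 bases. The beta ring was the only one of the 4 sets with an entry at every gene in both replicate lists, beside 28.1% of all genes. These were not always the same regions. In replicates 1 and 2 the strongest lay 741 and 107 bases from pbs-1, 14 and 724 from pbs-4, 826 and 240 from pbs-5, and 965 and 59 from pbs-6. They lay closer together at pbs-2 (396 and 352), pbs-3 (221 and 212) and pbs-7 (120 and 124).

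The 6 ATPase genes held no IDR peak (0%, interval up to 39.0%), beside 6.82% of all genes. None was met by the 1681 strongest entries of replicate 1 or replicate 2, beside 6.63% and 6.59% of all genes. In a list so short, counts of 0 are near the background. The strongest entry was at rpt-1, with pooled rank 2343 (62.2) and ranks of 2183 and 2861 in the replicates. The others were rpt-4 (4233), rpt-3 (7593), rpt-2 (8276) and rpt-6 (13138), with summits 171, 837, 167 and 371 bases from their starts. The gene rpt-5 had no entry in any list. At rpt-3 replicate 1 had no entry, while replicate 2 had one of rank 4026. The median pooled rank was 7934.5 over the ATPase genes and 3410 over the 13 non-ATPase genes. With 6 and 13 genes, no difference between these sets was tested.

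Of the non-ATPase genes, rpn-8, which encodes the partner of the deubiquitinase RPN-11, missed the IDR list most narrowly. Its pooled rank was 1703 (72.4), with 2715 and 2047 in the replicates, beside 1413 for pas-3, the weakest subunit gene inside it. The rpn-8 summit of rank 1703 lay 651 bases from the rpn-8 start, and another pooled summit lay nearer, at 253 bases. The lid gene rpn-5 followed with rank 2826 and a summit 3 bases from its start. The ubiquitin receptor gene rpn-13 had 3410 (384 bases away) and the scaffold gene rpn-1 had 3876 (500 bases away). The lid gene rpn-12 had 5185, from a summit 821 bases from its start and 426 bases from that of rad-23. A weaker pooled summit lay nearer to rpn-12, at 123 bases. The divergent gene rad-23 encodes a ubiquitin receptor that shuttles substrates to the proteasome. The strongest entry at rpn-12 lay 818 bases away in replicate 1 (rank 2887) but 133 bases away in replicate 2 (rank 19099).

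No pooled entry lay at the scaffold gene rpn-2, the ubiquitin receptor gene rpn-10 or the lid gene rpn-6.1. The nearest pooled summit was 7312 bases from rpn-2, 1346 from rpn-10 and 1491 from rpn-6.1. At rpn-6.1 both replicates had an entry all the same, with ranks 16319 and 9617, and rpn-10 had one of rank 11538 in replicate 2. The paralog of rpn-6.1, rpn-6.2, had the pooled rank 5373, from a summit 812 bases from its start. A weaker pooled summit lay nearer to rpn-6.2, at 206 bases. Over all 33 genes, both replicates had an entry at 27 (81.8%, beside 28.1% of all genes). Replicate 2 alone had one at 4 (pas-2, pas-7, rpn-10 and rpt-3), replicate 1 alone at 0, and neither at rpn-2 and rpt-5. Of all 19985 protein-coding genes, replicate 2 alone had one at 2338, replicate 1 alone at 2696 and neither at 9330. The 4 genes met by replicate 2 alone are thus near the share of all genes. Replicate 1 held entries at 27 subunit genes, beside 41.6% of all genes, and replicate 2 at 31, beside 39.8%. A gene counted in both replicates need not have the same region in both. The strongest entries lay 965 and 59 bases from the start at pbs-6, for example, but 120 and 124 bases at pbs-7.

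Core and regulatory particle had nearly equal shares of IDR peaks, 3 of 14 (21.4%, interval 7.57 to 47.6%) and 4 of 19 (21.1%, interval 8.51 to 43.3%). The difference, core minus regulatory, was 0.376 percentage points, with a Newcombe 95% interval from -25.9 to 29.4. With so few genes this interval is wide. It covers counting error only, and no difference between the particles was tested. In the pooled list the counts were 13 of 14 (92.9%) and 15 of 19 (78.9%), a difference of 13.9 points (interval -13.5 to 37). The median pooled ranks were 4419 and 4233. Without replicate 2 the counts among the 1681 strongest entries were 3 of 14 and 2 of 19, and without replicate 1 they were 4 of 14 and 4 of 19. Of the regulatory particle genes, 8 of 19 had 2 annotated start positions, while every core gene had 1, and the median gene lengths were 1953 and 1018.5 bases. Whether the number of starts or the length moves the shares was not tested.

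**Figure D3:**
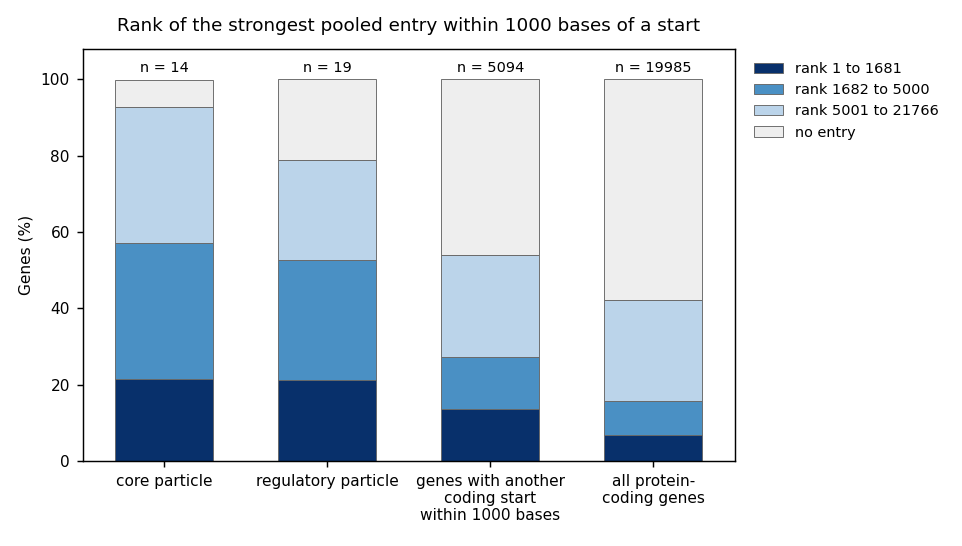
Share of genes by the rank of their strongest pooled entry within 1000 bases of a start (stacked to 100%, number of genes above each bar). Core and regulatory bars resemble each other at ranks up to 5000, and both hold far fewer genes without an entry (7.14% and 21.1%) than all protein-coding genes (57.9%) or those with another coding start within 1000 bases (46.1%).

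The genes upstream of the subunit genes fell into a few arrangements. At 20 of 33 the next coding gene upstream was divergent and within 1000 bases, and 4 of these 20 had an IDR peak and 16 a pooled entry, beside 15.7% and 55.5% of the 3526 protein-coding genes so arranged. At 8 it was on the same strand and ended within 500 bases, of which 3 had an IDR peak (pas-1, pbs-3 and rpn-11) and 7 a pooled entry, beside 4.34% and 39.8% of 3730 genes. The other 5 genes (pas-5, pbs-4, rpt-1, rpt-4 and rpt-6) had no IDR peak and a pooled entry each, beside 5.08% and 39.1% of 12729 genes. Several upstream neighbours also serve basic cell functions, among them eif-6 (a translation initiation factor, at pbs-2), mrps-6 and mrpl-9 (mitochondrial ribosomal proteins, at rpn-8 and rpn-10), ribo-1 (protein glycosylation, at rpn-1) and scc-1 (cohesin, at rpn-5). These neighbours were named for their known roles after the list was seen.

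Promoter windows were read from the genome, from 250 bases before to 50 bases after the most upstream start of each gene. The same hexamers were searched on both strands, and 2 of them, those ending in TCAT, are contained in the sites SKN-1 is known to bind. TGTCAT lay in 12 of 33 subunit promoters (36.4%), beside 3262 of 19973 nuclear promoters (16.3%), with 5 of 14 in the core and 7 of 19 in the regulatory particle. Of these 12 genes 2 had an IDR peak, rpn-7 and rpn-11, beside 7 of all 33 subunit genes and 180 of the 3262 nuclear genes with TGTCAT. For TATCAT the count was 4 (12.1%, beside 19.4%). For TAATTA the count was 8 (24.2%, beside 15.5%). For GAGAGA the count was 6 (18.2%, beside 21.8%). A match is a string of letters and not a shown binding site.

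Each TGTCAT upstream of a subunit gene's start is shown with 10 bases on either side where it can be printed, because this hexamer stood out most from the share of all promoters. The runs are read so that TGTCAT, in capitals, appears forward, with the strand given, again from ce11.
pas-2, chrV:10770247-10770272, minus strand: ccggtgaaatTGTCATcattcgaact
pas-6, chrV:5584522-5584547, minus strand: tcgcttatttTGTCATcctttcaaat
pbs-1, chrIV:1709875-1709900, plus strand: gaaaaaacatTGTCATcaaatctcaa
pbs-6, chrIII:8244131-8244156, minus strand: aattgaatttTGTCATattgaatatt
rpn-12, chrII:11652980-11653005, plus strand: ctgccagaatTGTCATtgtgtcgatt
rpn-2, chrIII:6198944-6198969, plus strand: ggacgaaattTGTCATtcgcaatcat
rpn-6.1, chrIII:6962182-6962207, plus strand: cctcgtcgtcTGTCATcttttttatc
rpt-2, chrV:6017775-6017800, minus strand: gcgcttgcatTGTCATcatcaacgct

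None of these 8 genes had an IDR peak, which in so few genes is near the 6.82% of all genes with one. The genes rpn-2 and rpn-6.1 had no pooled entry, beside 57.9% of all genes. The TGTCAT genes with a peak, rpn-7 and rpn-11, are not among the 8 because their match lay downstream of the start. The matches shown lay from 52 bases (pbs-6) to 228 bases (rpn-2) upstream of the start. Downstream of the start, matches at pbs-6, rpn-7 and rpt-1 overlapped the gene's own coding sequence, at pbs-6 and rpn-7 the first codon, and the match at rpn-11 lay 28 bases after the start.

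Genes that work with the proteasome were counted from lists defined by symbol. Of 54 such genes, 11 had an IDR peak (20.4%, beside 6.82% of all genes) and 36 a pooled entry (66.7%, beside 42.1%). Among proteasome-associated factors, 3 of 6 had a peak, beside 6.82% of all genes, and 1 of 6 without replicate 2 and 2 of 6 without replicate 1. At ecps-1, whose relatives tether the proteasome to other structures, 2 IDR peaks had a summit within 1000 bases. The stronger had the pooled rank 11 (signal value 454.6, ranks 10 and 11 in the replicates), far above any subunit gene. Its summit lay 776 bases away, however, and the entry is shared with atx-2. The peaks at akir-1, whose relatives guide proteasomes into the nucleus, and at ubh-4, a deubiquitinase gene, ranked 1540 and 1589. Their summits lay 498 and 25 bases away and are shared with E01A2.1 and algn-6. The deubiquitinase gene usp-14 had the pooled rank 6389, and dss-1, which encodes a small lid subunit outside the symbol rule, had no entry in any list.

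Of CDC-48, the ATPase that pulls ubiquitin-tagged proteins out of complexes, and its cofactors, 4 of 13 genes had a peak (30.8%, beside 6.82% of all genes and 13.7% of closely spaced ones). The gene cdc-48.1 had rank 26 (352.0), with 23 and 30 in the replicates, and no other coding start near the summit. The peaks at ufd-3, ufd-2 and cdc-48.2 ranked 322, 734 and 1057. The ufd-2 summit also had no other coding start near it, while the ufd-3 summit is shared with C05C10.5. At cdc-48.2 the summit lay 822 bases away and is shared with ctns-1. The genes npl-4.1 and npl-4.2 had no entry in any list. Of ubiquitin, its activating enzyme and the ubc genes, 4 of 24 had a peak (16.7%, beside 6.82% of all genes). This was near the 13.7% of closely spaced genes, but the spacing of these 24 was not counted. They were ubc-6 with rank 473, ubc-25 with 852, ubc-9 with 1078 and the polyubiquitin gene ubq-1 with 1585. The enzyme of ubc-9 conjugates SUMO and not ubiquitin. Only the ubc-6 summit had another coding start near it, that of aka-1. The gene for the activating enzyme, uba-1, had the pooled rank 4387.

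No IDR peak lay near the 5 genes of SKN-1 and its processing or the 6 genes of the COP9 signalosome, a complex built like the proteasome lid. With 6.82% of all genes having one, counts of 0 in lists so short are near the background, and at 2000 bases or with the single nearest start 1 of the 5 genes of the SKN-1 list had a peak. At skn-1 the pooled rank was 7959, and ddi-1, png-1 and sel-1 had entries in replicate 1 alone, with ranks from 11897 to 20636. The gene sel-11 had no entry in any list. Of the csn genes, 5 of 6 had a pooled entry (83.3%, beside 42.1% of all genes), from rank 8102 at csn-1 to 21010 at csn-2, all weaker than the median subunit gene. Within 500 bases of a start, 2 of these 6 genes had a pooled entry (33.3%), near the 30.5% of all genes.

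**Figure D4:**
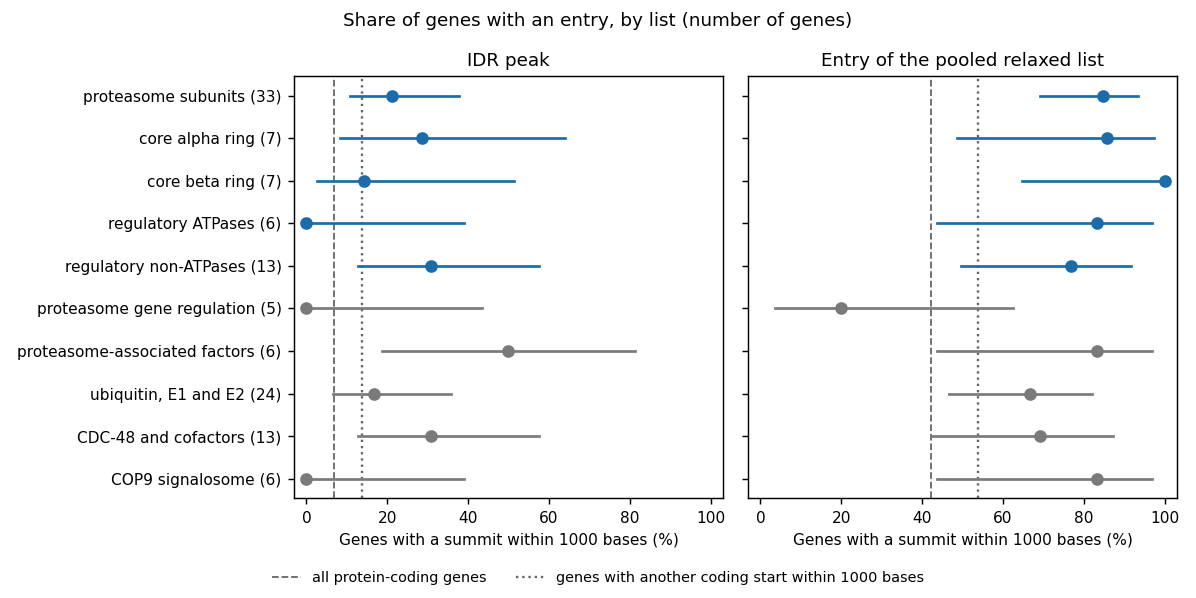
Share of genes with a summit within 1000 bases of a start, with Wilson 95% intervals, for IDR peaks (left) and pooled entries (right), with the number of genes in brackets. Blue lists are sets of proteasome subunits and grey lists are genes that work with them. The dashed line is the share of all protein-coding genes (6.82% and 42.1%) and the dotted line that of genes with another coding start within 1000 bases (13.7% and 53.9%).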

How the data were processed

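Chromatin immunoprecipitation followed by sequencing was measured in 2 replicates of 1 group, and their numbers come from the labels. The authors deposited narrowPeak lists in ce10 and ce11, and the ce11 lists were used: the IDR peaks, the pooled relaxed list and 1 relaxed list per replicate. Each entry carries a signal value that the authors deposited without a stated scale. It was used only to rank and describe entries within a list. The relaxed lists derive from alignments and 1 further file of unstated kind, per the deposited sample records. Which aligner, caller and IDR threshold were used is not given in the sources used here. No read numbers are given, so depth is unknown and intervals cover counting error only.

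Gene models were Ensembl release 115 (WBcel235, the same sequence as ce11; no entry end passed a chromosome's length). Coordinates are 1-based. Counts, shares, Wilson and Newcombe intervals at 95% and hexamer searches were computed with Python 3.11.15, numpy 2.4.6 and scipy 1.17.1. The window rule was tested on simulated data, with 200 placed summits and 0 wrong assignments. Named were every subunit gene, genes sharing a summit with one, and linked genes with an IDR peak; further linked genes and neighbours were chosen after their values were seen. The subunit genes, lists and hexamers were chosen with earlier results of these data known. Alternatives were the window, the nearest or most upstream start, the stronger 50% of entries, each replicate left out and the overlap rule.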

Additional observations from a re-analysis of the deposited data

How the results depend on the processing

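The counts of IDR peaks were small and moved with several choices. Among the stronger 50% of peaks they were 2 over all subunit genes (6.06%), 1 in the core (7.14%) and 1 in the regulatory particle (5.26%). All genes had 3.74% there, and the entries are fewer by construction. With the single nearest coding start they were 3, 1 and 2 (9.09%, 7.14% and 10.5%), beside 7.32% of all genes. This alternative gives a shared summit to 1 gene and also lifts the 1000-base limit. At 2000 bases the core count was 5 (35.7%), beside 9.57% of all genes. Leaving out 1 replicate gave 5 to 8 over all, 3 to 4 in the core and 2 to 4 in the regulatory particle. The share of all genes was then 6.59% without replicate 1 and 6.63% without replicate 2. At 500 bases and with the most upstream start the 3 counts stayed within 1.5 times, beside 5.12% and 6.32% of all genes. The pooled counts stayed within 1.5 times under every alternative, at 21 to 31 over all, 9 to 14 in the core and 12 to 17 in the regulatory particle. Their distance from the share of all genes did move. With the single nearest start, 21 subunit genes (63.6%) had a pooled entry, beside 51.0% of all genes. In the main setting the shares were 84.8% and 42.1%. Peaks met in both replicates numbered 7 by either overlap and 2 with summits within 50 bases; the cause was not tested. No paired analysis was possible because the series holds 1 group. No read depth is given, so that absent entries cannot be told from undetected ones.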
